A study of Mus musculus with 6 samples.

Results

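The oligodendrocyte and myelin genes studied here are 32 listed mouse genes, found by symbol in the deposited table of read counts. All 32 were among its 24421 rows, and all 32 passed the expression filter that left 14916 genes for testing. They code for proteins of the myelin sheath, the enzymes and connexins of the myelinating cell, the transcription factors of its lineage, and surface molecules of its precursors. Expression was measured by RNA sequencing of hippocampus, in 3 libraries from mice with a conditional knockout of Ctcf (cKO) and 3 from wild type (WT) mice. The strain of both groups is given as C57/Bl, and the series description calls the libraries biological replicates. The labels do not give age, the Cre line or the cells in which Ctcf is deleted. Libraries held 14974750 to 23220455 counted reads. Ctcf, which encodes a zinc finger DNA-binding protein of chromatin loops and insulators, had 24.1, 34.5 and 35.8 CPM (read counts scaled to a common library total) in cKO replicates 1 to 3, against 64.3, 65.2 and 70.3 CPM in WT replicates 1 to 3, with a log2 fold change of -1.08 (SE 0.15, adjusted p = 0.0264 by edgeR), so the target gene matched the labels.

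Oligodendrocytes wrap axons of the central nervous system in compacted membrane, the myelin sheath, which insulates the axon and speeds conduction. They arise from precursor cells that carry the receptor Pdgfra and the proteoglycan Cspg4, pass through a short-lived stage marked by the receptor Gpr17, and then switch on myelin genes under the transcription factors Sox10 and Myrf. In the hippocampus most myelin lies in the fibre tracts at its margins, such as the fimbria and alveus. In bulk tissue, fewer cells of a type and less RNA per cell cannot be told apart.

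Nearly all of the oligodendrocyte and myelin genes had a lower mean level in cKO than in WT hippocampus, but no single member passed the test across all genes. By edgeR's quasi-likelihood test, 31 of 32 had a negative log2 fold change (cKO over WT), as had 50.8% of all genes tested. Their median log2 fold change was -0.32, against -0.0042 over all genes tested. Values ran from -1.05 for Enpp2 to 0.011 for Nkx2-2, and 22 of the 32 lay between -0.2 and -0.5. At an adjusted p below 0.05, edgeR called 0 members lower and 0 higher, where 0.463% of all genes were called lower and 1.05% higher (1.51% in either direction). At an unadjusted p below 0.05, 15 members were lower and 0 higher, against 8.81% and 11.1% of all genes. DESeq2 called 4 members lower (Mbp, Mag, Trf and Apod) and 0 higher, where it called 2.46% of all genes lower and 3.54% higher, and limma-voom called 0, where it called 0.382% of all genes lower. The authors' deposited table also listed 4 members at an adjusted p below 0.05, all lower in cKO, where the same rule took 1.65% of its genes. The members were listed with earlier results of these data known, so these counts are a description.

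**Figure D1:**
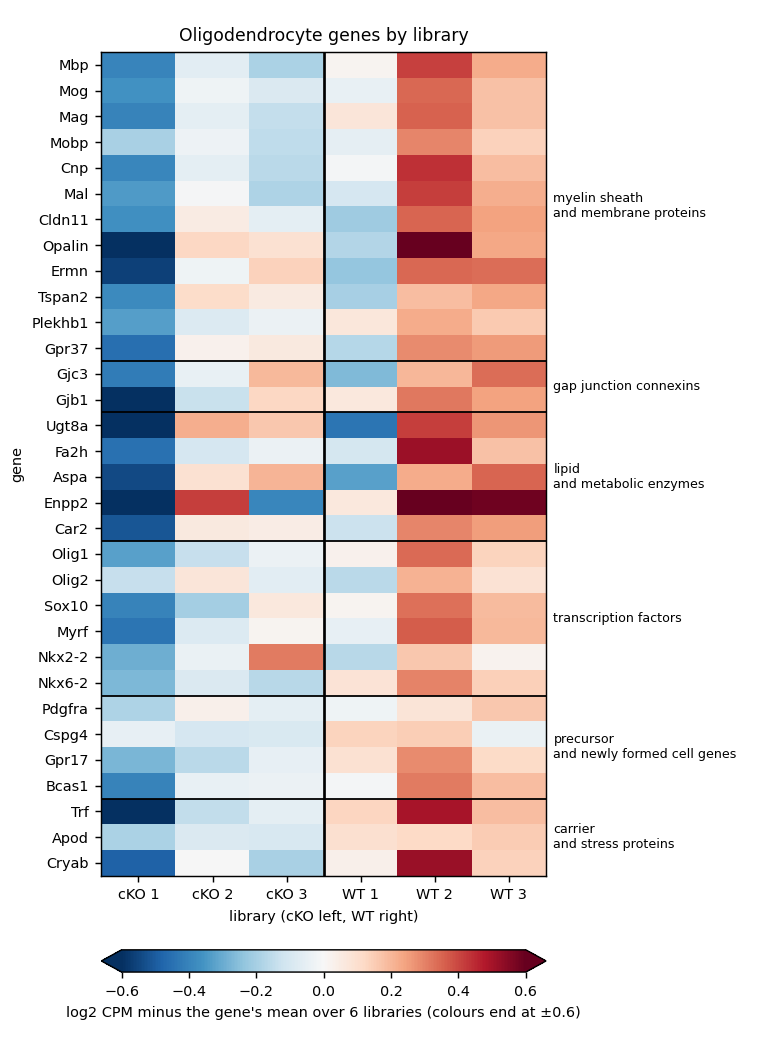
Each row is one gene and each column one library (cKO left, WT right); colour gives the log2 CPM minus the gene's mean over the 6 libraries. The cKO replicate 1 column is the darkest blue and the WT replicate 2 column the darkest red, while cKO replicates 2 and 3 and WT replicate 1 are pale in most rows, Enpp2 and Ugt8a being exceptions. Colours end at ± 0.6.

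The 6 libraries did not split cleanly by genotype for most members. All cKO libraries lay below all WT libraries in 12 of 32 genes (Mbp, Mag, Cnp, Plekhb1, Olig1, Nkx6-2, Cspg4, Gpr17, Bcas1, Trf, Apod and Cryab), against 12.4% of all genes tested. In 0 members did all cKO libraries lie above all WT libraries, against 14.6% of all genes tested. A single cKO library, replicate 1, held the lowest level in 30 of 32 members, where it was lowest in 20.3% of all genes tested. WT replicate 2 held the highest level in 26 of 32, where it was highest in 26.4% of all genes. Within a genotype, the highest and lowest libraries differed by a median of 0.41 on the log2 scale in cKO and 0.39 in WT, more than the median difference between genotypes. The range within at least 1 genotype exceeded the difference between genotypes in 25 of 32 members, and in Mbp, Mag, Plekhb1, Olig1, Nkx6-2, Gpr17 and Apod it did not. A range is not the same measure as a difference of means, and the share over all genes tested was not computed for this count. The count therefore describes the spread and does not set the members apart from other genes.

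Libraries cKO replicate 1 and WT replicate 2 also stood apart in markers of neighbouring tissue. All 8 striatal neuron markers were lowest in cKO replicate 1 and highest in WT replicate 2, and summed to 134 to 365 CPM in cKO libraries, against 622 to 3016 CPM in WT libraries. All 18 markers of choroid plexus and ependyma showed the same extremes, with sums of 642 to 7137 CPM in cKO libraries and 6444 to 12686 CPM in WT libraries. Most of each of these sums came from a single choroid plexus gene, Ttr. All of these markers passed the expression filter. Without these 2 libraries the median log2 fold change of the 32 genes was -0.13, with 25 negative, and the count of members with groups apart stayed at 12, with none added, while the share over all genes was 23.2% with 2 libraries against 2, compared with 12.4% with 3 against 3. Members apart in 6 libraries are bound to be apart in 4 of them. Among the 32 members, cKO replicate 1 was lowest in 30 and WT replicate 2 highest in 26. Leaving both out was therefore bound to raise most of the fold changes, here and for the single genes below. Fitted with the level of the striatal markers as a further term, the members had a median of 0.21, and 5 were negative. With the choroid plexus level it was -0.10, with 21 negative. The striatal level itself separated the genotypes, so its share and that of the genotype cannot be told apart, and the part of tissue content in the oligodendrocyte values was not tested.

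**Figure D2:**
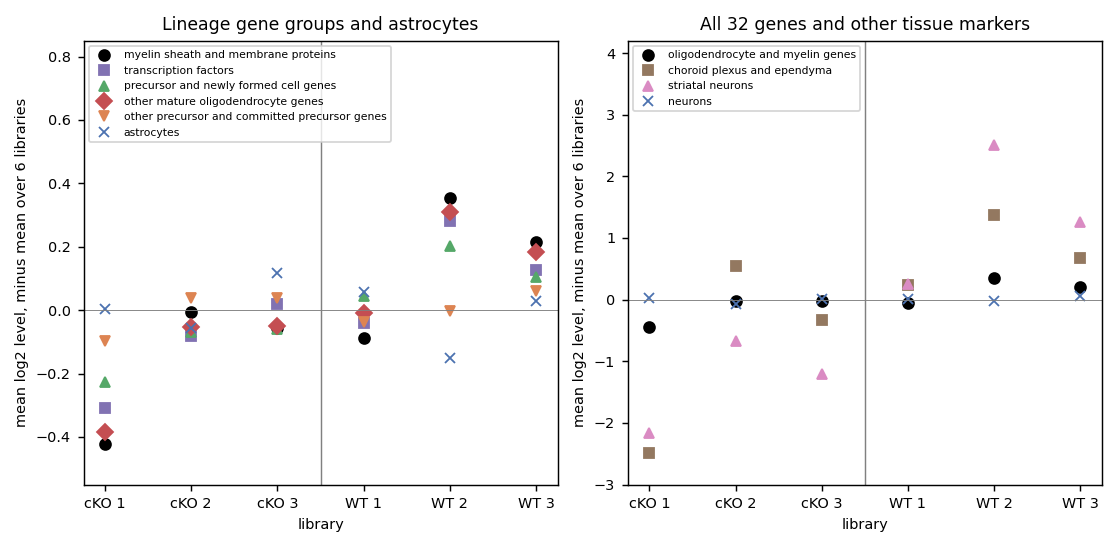
Each point is the mean log2 level of a gene group in 1 library, minus its mean over the 6 libraries (cKO left, WT right); the right panel has a wider scale. The 32 genes lie at -0.44 in cKO replicate 1 and 0.35 in WT replicate 2, while astrocyte and neuron markers stay between -0.15 and 0.12.

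Lists for other cell types of the hippocampus had medians nearer to 0. The median log2 fold change was 0.043 for 14 astrocyte genes, -0.044 for 12 neuron genes, -0.027 for 12 microglia genes, -0.051 for 12 endothelial and mural genes and -0.018 for 10 meningeal and fibroblast genes. Gfap, an intermediate filament protein of astrocytes, had 428, 444 and 377 CPM in cKO replicates 1 to 3, against 356, 364 and 371 CPM in WT replicates 1 to 3. The astrocyte level, unlike the oligodendrocyte level, was not lowest in cKO replicate 1. The meningeal and fibroblast level was also lowest in cKO replicate 1, at -0.30 from its mean over the 6 libraries.

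The 12 genes of the myelin sheath and membrane were all lower on average in cKO, with a median log2 fold change of -0.31. At an unadjusted p below 0.05 by edgeR 7 were lower, against 8.81% of all genes tested. Mbp (chromosome 18, 82475091 to 82585637, GRCm38) encodes myelin basic protein, which holds the inner faces of the compacted membrane together. It had 5462, 6881 and 6304 CPM in cKO replicates 1 to 3, against 7261, 9539 and 8386 CPM in WT replicates 1 to 3. Every cKO library lay below every WT library, but cKO replicate 2 and WT replicate 1 were close. The log2 fold change was -0.43 (SE 0.14), with an adjusted p of 0.15 by edgeR and 0.0309 by DESeq2, and was -0.25 without cKO replicate 1 and WT replicate 2. The Mbp gene also gives the longer Golli transcripts, which are not restricted to oligodendrocytes and which a count per gene does not separate.

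Mag (chromosome 7, 30899175 to 30914922) encodes myelin-associated glycoprotein, an adhesion molecule on the sheath's innermost, axon-facing layer. Its levels were 366, 464 and 436 CPM in cKO replicates 1 to 3 and 507, 616 and 544 CPM in WT replicates 1 to 3. The groups did not overlap, and the log2 fold change was -0.40 (SE 0.11, adjusted p = 0.136 by edgeR and 0.0348 by DESeq2). Cnp (chromosome 11, 100574909 to 100591875), a phosphodiesterase of the non-compacted channels of myelin, had 656, 824 and 768 CPM in cKO replicates 1 to 3, against 851, 1165 and 975 CPM in WT replicates 1 to 3. Again cKO replicate 2 nearly reached WT replicate 1, and the log2 fold change was -0.41 (SE 0.14, adjusted p = 0.166). Cnp shares exon sequence with Dnajc7 on the other strand (160.4 CPM on average), so part of its reads is uncertain. Plekhb1 (chromosome 7, 100643896 to 100662394), a membrane-associated protein with a pleckstrin homology domain, had 570.4, 677 and 700.2 CPM in cKO replicates 1 to 3 and 753, 839 and 801 CPM in WT replicates 1 to 3. Its groups lay apart, with a log2 fold change of -0.30 (SE 0.098, adjusted p = 0.165). Without cKO replicate 1 and WT replicate 2 the log2 fold changes were -0.23 for Mag, -0.20 for Cnp and -0.17 for Plekhb1.

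Among the other membrane proteins the groups overlapped. Mog, a surface glycoprotein of the outermost layer, had a log2 fold change of -0.32, Mobp, a small basic myelin protein, of -0.26, and Mal, a raft-associated proteolipid, of -0.36. Without cKO replicate 1 and WT replicate 2 these were -0.13, -0.14 and -0.16. Opalin, a glycoprotein of mature oligodendrocytes, had 17.3, 34.8 and 34.0 CPM in cKO replicates 1 to 3, against 28.3, 49.1 and 37.6 CPM in WT replicates 1 to 3. Its log2 fold change was -0.42 (SE 0.29). Without cKO replicate 1 and WT replicate 2, its lowest and highest libraries, it was 0.057. Ermn, a cytoskeletal protein of mature cells, and Cldn11, the tight junction claudin of myelin, had log2 fold changes of -0.29 and -0.26, and of -0.019 and -0.038 without both libraries. Gpr37, an orphan receptor, and Tspan2, a tetraspanin, had -0.24 and -0.14, and -0.017 and 0.047 without both libraries. Leaving out cKO replicate 1 alone brought Tspan2 to -0.0037.

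**Figure D3:**
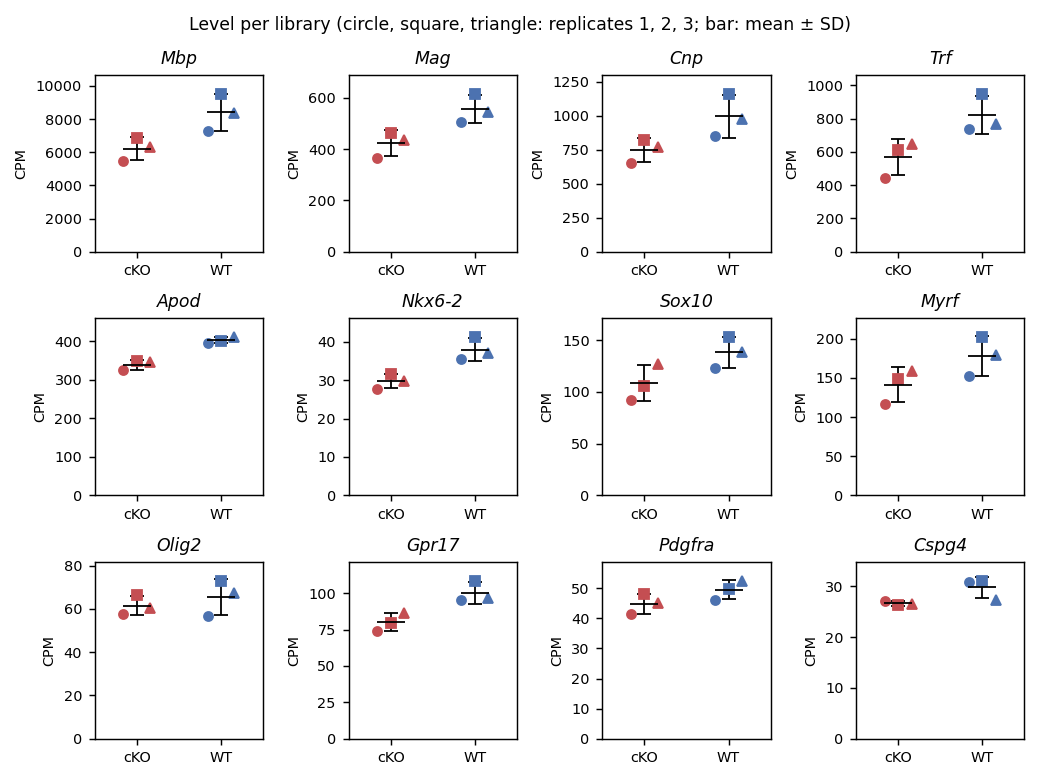
Points are CPM in each library for 12 genes (cKO left, WT right; circle, square and triangle for replicates 1, 2 and 3), and bars give mean ± SD of 3 libraries. In Apod, Nkx6-2 and Gpr17 the groups are separated by a clear gap, while in Olig2 and Pdgfra they overlap.

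The 2 connexins and 5 enzymes gave wide, overlapping groups. The connexins Gjb1 and Gjc3, which belong to the gap junction protein family, had log2 fold changes of -0.38 (SE 0.18) and -0.18 (SE 0.19), and of -0.15 and 0.011 without cKO replicate 1 and WT replicate 2. Ugt8a, which makes the galactolipids of myelin, had 76.6, 137 and 132 CPM in cKO replicates 1 to 3 and 86.9, 157 and 141 CPM in WT replicates 1 to 3. Replicate 1 was low in both genotypes, and the log2 fold change was -0.16 (SE 0.27). Fa2h, the fatty acid hydroxylase of these lipids, had -0.40 (SE 0.17), Aspa, which splits N-acetylaspartate, -0.16 (SE 0.23), and Car2, a carbonic anhydrase, -0.27 (SE 0.18). Without cKO replicate 1 and WT replicate 2 the values were 0.23 for Ugt8a, -0.11 for Fa2h, 0.094 for Aspa and -0.025 for Car2. Leaving out cKO replicate 1 alone turned Ugt8a to 0.065 and Aspa to 0.038, and leaving out WT replicate 2 alone turned Ugt8a to 0.010.

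Enpp2 (chromosome 15, 54838901 to 54952789), the secreted enzyme autotaxin, had the largest difference of the 32 and the largest error. It is expressed by oligodendrocytes and strongly by choroid plexus. Its levels were 369, 1849 and 1058 CPM in cKO replicates 1 to 3, against 1449, 3271 and 2079 CPM in WT replicates 1 to 3. The groups overlapped and the log2 fold change was -1.05 (SE 0.54, adjusted p = 0.328). Ttr, the transthyretin gene of choroid plexus, followed the same order over the 6 libraries, with 558, 6571 and 3067 CPM in cKO replicates 1 to 3 and 5996, 11669 and 7310 CPM in WT replicates 1 to 3. The log2 fold change of Enpp2 was -0.28 without cKO replicate 1 and WT replicate 2, and -0.064 with the choroid plexus level as a covariate.

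Of the 6 transcription factors, Nkx6-2 gave the smallest p of all 32 members by edgeR, whereas by DESeq2 the smallest adjusted p was that of Apod (0.0193). Nkx6-2 (chromosome 7, 139579376 to 139582797), a homeodomain factor of myelinating oligodendrocytes, had 27.8, 31.5 and 29.9 CPM in cKO replicates 1 to 3, against 35.5, 41.2 and 37.0 CPM in WT replicates 1 to 3. The groups did not overlap, with a log2 fold change of -0.35 (SE 0.091, adjusted p = 0.109 by edgeR and 0.0587 by DESeq2). Without cKO replicate 1 and WT replicate 2 the log2 fold change was -0.24, and with the striatal covariate it was -0.072. Nkx6-2 shares exon sequence with Inpp5a on the other strand (91.8 CPM), a more abundant gene, so its reads are uncertain.

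Sox10 and Myrf, which drive the switch to myelin gene expression, had overlapping groups. Sox10 (chromosome 15, 79154913 to 79164490) had 92.2, 106 and 127 CPM in cKO replicates 1 to 3 and 123, 153 and 139 CPM in WT replicates 1 to 3, with a log2 fold change of -0.35 (SE 0.13, adjusted p = 0.211). Myrf (chromosome 19, 10208271 to 10240777) had 116, 149 and 159 CPM in cKO replicates 1 to 3 and 152, 202 and 179.9 CPM in WT replicates 1 to 3, with a log2 fold change of -0.33 (SE 0.15, adjusted p = 0.258). In both, cKO replicate 3 lay above WT replicate 1. Without cKO replicate 1 and WT replicate 2 the values were -0.17 for Sox10 and -0.11 for Myrf.

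Olig1 and Olig2 are neighbouring bHLH factor genes on chromosome 16 that specify the lineage. Olig2 (91225550 to 91228677) had 57.5, 66.5 and 60.5 CPM in cKO replicates 1 to 3, against 56.5, 73.0 and 67.2 CPM in WT replicates 1 to 3. WT replicate 1 was the lowest of the 6 libraries and the groups overlapped; the log2 fold change was -0.093 (SE 0.11, adjusted p = 0.674). Olig1 (91269769 to 91271939) had 235, 267 and 287 CPM in cKO replicates 1 to 3 and 299.6, 372 and 322 CPM in WT replicates 1 to 3, with groups apart and a log2 fold change of -0.33 (SE 0.11, adjusted p = 0.166). The ratio of Olig1 to Olig2 CPM was 4.28 ± 0.41 in cKO and 5.06 ± 0.26 in WT (SD, n = 3 each), and lay lower in every cKO library than in every WT library. Without cKO replicate 1 and WT replicate 2 the log2 fold changes were -0.17 for Olig1 and 0.035 for Olig2. A two-sided exact permutation test on the log2 ratio, chosen after the values were seen, gave p = 0.1, the smallest that 3 against 3 libraries allow. Nkx2-2, a homeodomain factor of precursors, was the lowest of the factors, at 6.68 ± 1.42 CPM in cKO and 6.66 ± 0.75 CPM in WT (SD, n = 3 each).

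The 4 genes of precursors and newly formed cells had a median log2 fold change of -0.24. Pdgfra (chromosome 5, 75151322 to 75198206), the receptor through which platelet-derived growth factor drives precursor division, had 41.4, 48.0 and 45.2 CPM in cKO replicates 1 to 3 and 46.2, 49.7 and 52.5 CPM in WT replicates 1 to 3. The groups overlapped, with a log2 fold change of -0.14 (SE 0.087, adjusted p = 0.4), and of -0.087 without cKO replicate 1 and WT replicate 2. Cspg4 (chromosome 9, 56865104 to 56899870), the NG2 proteoglycan of precursors and pericytes, had 27.2, 26.2 and 26.4 CPM in cKO replicates 1 to 3, against 30.8, 31.1 and 27.4 CPM in WT replicates 1 to 3. Its groups were apart by less than 1 CPM, and the log2 fold change was -0.16 (SE 0.085, adjusted p = 0.335).

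Gpr17 (chromosome 18, 31942999 to 31949890), the receptor of committed precursors, was lower in every cKO library. It had 73.8, 79.7 and 86.2 CPM in cKO replicates 1 to 3 and 95.0, 109 and 96.5 CPM in WT replicates 1 to 3, with a log2 fold change of -0.32 (SE 0.089, adjusted p = 0.122 by edgeR and 0.056 by DESeq2). Without the libraries that stood apart it was -0.21. It shares exon sequence with Lims2 on the other strand (23.9 CPM). Bcas1, which marks newly forming myelin, had a log2 fold change of -0.32 (SE 0.13), with groups apart, and -0.13 without those libraries. Taking the ratio of Mbp to Pdgfra CPM as a measure chosen after seeing the values, it was 138 ± 5.84 in cKO and 169.7 ± 19.5 in WT (SD, n = 3 each), with groups apart and a two-sided exact permutation p of 0.1, again the smallest possible. With Cspg4 in place of Pdgfra the groups overlapped, and the exact permutation p was 0.3. The ratio of Gpr17 to Pdgfra CPM was 1.78 ± 0.12 in cKO and 2.03 ± 0.18 in WT (SD, n = 3 each), with overlapping groups and an exact permutation p of 0.2. These 3 ratios and that of Olig1 to Olig2 were the 4 computed, and each was tested on the log2 scale.

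Apod, Trf and Cryab, which code for carrier and stress proteins, had the largest median of the 6 groups of members at -0.46. In all 3, every cKO library lay below every WT library, against 12.4% of all genes tested. Apod (chromosome 16, 31296192 to 31314808), a lipid-binding lipocalin, varied least within a genotype relative to its difference. Its levels were 324, 348 and 346 CPM in cKO replicates 1 to 3 and 395, 402 and 411 CPM in WT replicates 1 to 3. The log2 fold change was -0.25 (SE 0.067, adjusted p = 0.119 by edgeR and 0.0193 by DESeq2), and it was -0.22 without cKO replicate 1 and WT replicate 2 and -0.17 with the striatal covariate. Trf (chromosome 9, 103208876 to 103230286), the iron carrier transferrin, had 445, 610.0 and 649 CPM in cKO replicates 1 to 3, against 740.1, 952 and 768 CPM in WT replicates 1 to 3. The groups lay apart, with a log2 fold change of -0.53 (SE 0.16, adjusted p = 0.147 by edgeR and 0.0309 by DESeq2), which was -0.26 without those 2 libraries. Cryab, a small heat shock protein of oligodendrocytes and astrocytes, had a log2 fold change of -0.46 (SE 0.16, adjusted p = 0.189), and -0.18 without them.

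**Figure D4:**
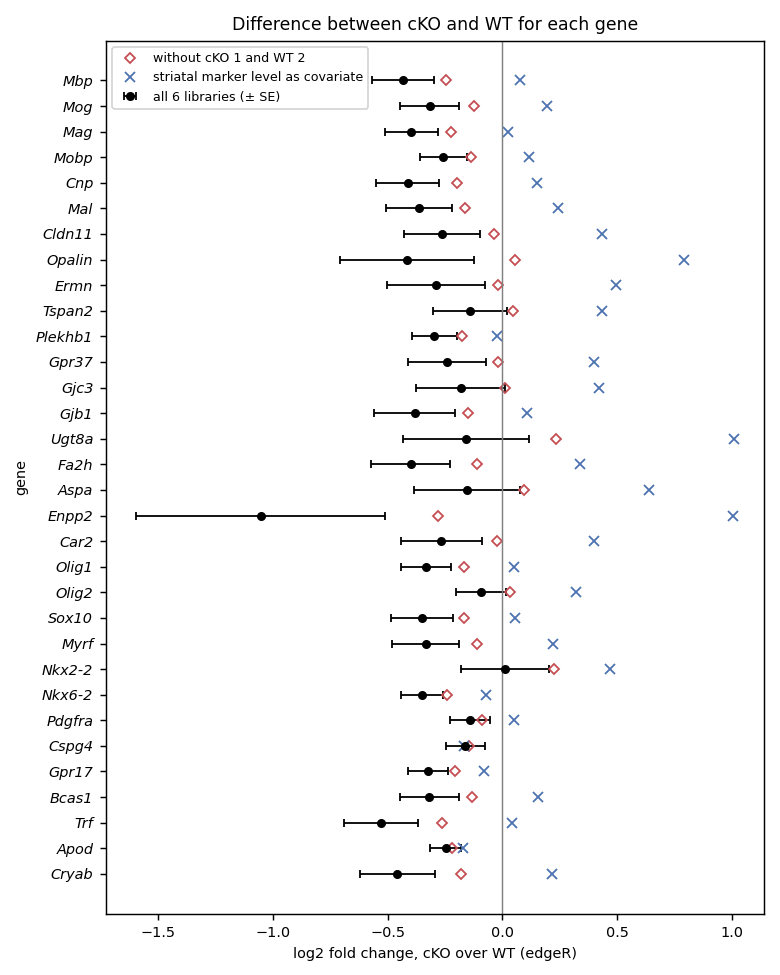
For each of the 32 genes, the filled point gives the log2 fold change (cKO over WT) with its SE from all 6 libraries, the open diamond the value without cKO replicate 1 and WT replicate 2, and the cross the value fitted with the striatal level as a further term. Diamonds lie nearer to 0 than filled points in most genes and crosses are mostly above 0, while Apod and Cspg4 stay between -0.1 and -0.3 in all 3.

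The promoters of Apod, Cnp and Opalin are shown for the motifs they hold. Those of Apod and Cnp carry a SOX core, and that of Opalin carries a loose form of the CTCF core. Opalin also holds 2 SOX cores, left in lower case. Each runs from 250 bases before to 50 bases after the transcript start that the RefSeq promoter table uses, 5′ to 3′ on the gene's strand, on GRCm38.p6. For Cnp that start lies downstream of the outermost start of the gene given above. Capitals mark a match on either strand to ACAAAG in Apod (chr16:31314759-31315058, minus strand) and Cnp (chr11:100574689-100574988, plus strand), and to the loose CTCF core in Opalin (chr19:41077064-41077363, minus strand).
Apod: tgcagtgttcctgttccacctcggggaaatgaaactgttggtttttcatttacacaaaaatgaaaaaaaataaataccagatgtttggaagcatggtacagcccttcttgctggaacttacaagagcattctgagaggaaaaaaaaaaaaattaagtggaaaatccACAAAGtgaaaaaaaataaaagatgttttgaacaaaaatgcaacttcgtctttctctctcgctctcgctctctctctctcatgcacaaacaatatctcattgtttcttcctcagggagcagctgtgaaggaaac
Cnp: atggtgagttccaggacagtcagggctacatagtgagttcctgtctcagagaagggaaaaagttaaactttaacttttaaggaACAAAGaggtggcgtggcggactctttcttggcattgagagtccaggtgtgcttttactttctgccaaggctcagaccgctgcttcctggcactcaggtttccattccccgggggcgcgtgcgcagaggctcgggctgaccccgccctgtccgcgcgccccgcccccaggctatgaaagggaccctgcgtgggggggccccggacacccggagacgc
Opalin: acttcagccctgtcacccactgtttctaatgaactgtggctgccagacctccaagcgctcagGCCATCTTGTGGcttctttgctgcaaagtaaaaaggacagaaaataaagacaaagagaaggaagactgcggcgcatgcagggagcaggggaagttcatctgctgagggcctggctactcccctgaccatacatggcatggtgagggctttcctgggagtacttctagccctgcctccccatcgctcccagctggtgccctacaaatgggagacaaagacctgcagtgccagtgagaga

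SOX10 and its relatives bind DNA through short sites of which ACAAAG is one form. Of the 21 members with a promoter in the RefSeq table, 8 held ACAAAG on either strand (Mag, Mobp, Cnp, Opalin, Tspan2, Plekhb1, Gjb1 and Apod), as did 21.0% of the 27025 genes in it. The groups overlapped in 4 of these 8 members (Mobp, Opalin, Tspan2 and Gjb1). The strict CTCF core, read as CC, 3 free bases, AGG, 1 free base and GGC on either strand, was found in 0 of 21 and in 3.96% of all genes. The loose form, which frees 1 more base (the G after AG) and so includes the strict one, was found in 2 of 21 (Opalin and Gjb1) and in 9.84% of all genes. A match describes letters in these windows and not a bound site. Opalin and Gjb1, with that string, had log2 fold changes of -0.42 and -0.38 and overlapping groups.

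Per kilobase of exon, the order of levels was led by Mbp, at 734 CPM per kilobase in cKO and 991 CPM per kilobase in WT. Cnp had 206 and 274, Mal 204 and 262, and Cldn11 216 and 259.6 CPM per kilobase in cKO and in WT. Enpp2 stood next to Mbp in WT at 392 CPM per kilobase but had 189 in cKO, below Cldn11, Cnp and Mal, with a spread of 741 CPM (SD, n = 3) around its cKO mean of 1092 CPM. At the low end stood Nkx2-2, with 2.32 CPM per kilobase in both genotypes, and Cspg4, with 2.23 in cKO and 2.496 in WT. The lowest count of any member in any library was 87, for Nkx2-2. The 32 genes together took 1.17%, 1.64% and 1.53% of all counts in cKO replicates 1 to 3, against 1.67%, 2.26% and 1.95% in WT replicates 1 to 3.

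Lineage genes outside the 32 were grouped by stage and role. Of 30 other genes of mature oligodendrocytes, 26 had negative log2 fold changes (median -0.33), 15 were lower at an unadjusted p below 0.05, edgeR called 0, and DESeq2 called 7 lower. Over all genes tested, 8.81% were lower and 11.1% higher at an unadjusted p below 0.05 by edgeR. DESeq2 called 2.46% of all genes lower. The same shares stand beside the counts of the other lists. Efnb3, an ephrin ligand, had 134, 147 and 147 CPM in cKO replicates 1 to 3 and 171, 198 and 198 CPM in WT replicates 1 to 3 (log2 fold change -0.41, SE 0.085, adjusted p = 0.0686 by edgeR). Adssl1, an enzyme of adenine nucleotide synthesis, had 25.1, 23.7 and 25.6 CPM in cKO replicates 1 to 3 and 32.6, 34.7 and 30.7 CPM in WT replicates 1 to 3 (log2 fold change -0.40, SE 0.084, adjusted p = 0.0702). In both, the groups lay apart and the value without the 2 libraries that stood apart was near, at -0.33 and -0.36. Klk6, a secreted serine protease of mature oligodendrocytes named after its values were seen, had 6.39, 9.30 and 11.7 CPM in cKO replicates 1 to 3 and 15.02, 17.7 and 18.4 CPM in WT replicates 1 to 3, with a log2 fold change of -0.89 (SE 0.21, adjusted p = 0.0912).

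Of 22 other precursor genes, 13 were negative (median log2 fold change -0.010), and edgeR called 0, with 1 lower and 1 higher at an unadjusted p below 0.05. Tnr, the matrix glycoprotein tenascin-R, which precursors and some neurons make, had 60.1, 57.7 and 48.9 CPM in cKO replicates 1 to 3, against 43.0, 44.0 and 38.7 CPM in WT replicates 1 to 3. It lay higher in every cKO library (log2 fold change 0.41, SE 0.10, adjusted p = 0.099 by edgeR and 0.0358 by DESeq2). Matn4, a matrix protein of precursors, had a log2 fold change of -0.45 (SE 0.17, adjusted p = 0.205). The difference between the mature and the precursor list was not tested.

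Of 18 tested lineage transcription and chromatin factors outside the 32, edgeR called 0, with 1 lower and 2 higher at an unadjusted p below 0.05 (median -0.031). Zeb2, a zinc finger factor that promotes myelination and is also made by neurons, had 191, 234 and 172 CPM in cKO replicates 1 to 3, against 130.4, 118 and 161 CPM in WT replicates 1 to 3. Every cKO library lay above every WT library, with a log2 fold change of 0.54 (SE 0.15, adjusted p = 0.121 by edgeR and 0.0192 by DESeq2). Hes5, a Notch target that holds back differentiation, had a log2 fold change of -0.38 (SE 0.12, adjusted p = 0.15).

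**Figure D5:**
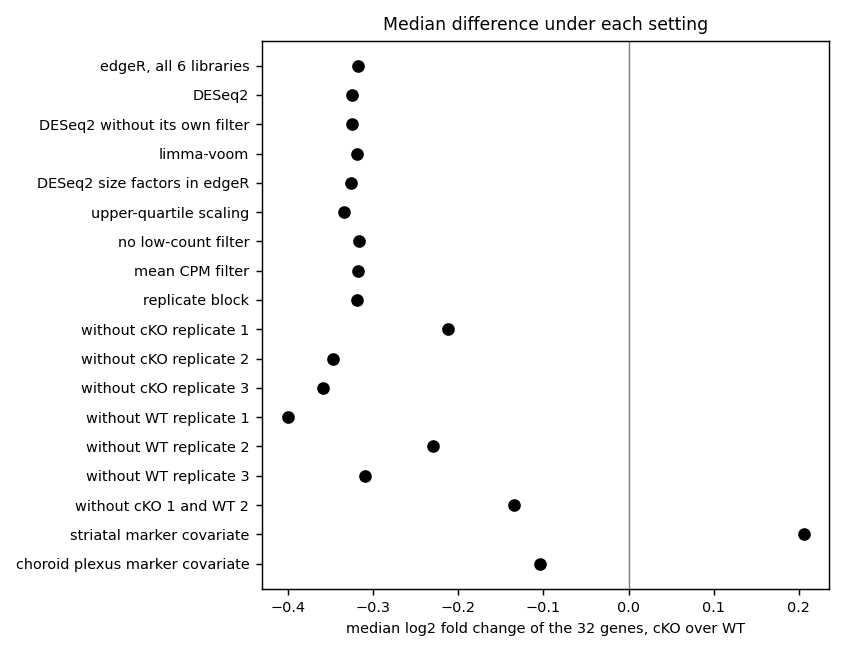
Each point is the median log2 fold change (cKO over WT) of the 32 genes under 1 setting, one setting per row. Medians lie between -0.40 and -0.21 for the other tools, scalings and filters and without any 1 library, at -0.13 without cKO replicate 1 and WT replicate 2, at -0.10 with the choroid plexus covariate, and at 0.21 with the striatal covariate.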

How the data were processed

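RNA sequencing of hippocampus was analysed in 3 cKO and 3 WT libraries. The authors' table holds, per the file headers, a read count for each gene symbol, beside normalised counts, a signal equal to the counts divided by 1 size factor per library. The authors' deposited table also gives a log2 fold change, a p-value and an adjusted p-value for cKO against WT. Tools named in the submitters' processing notes are DESeq2 1.6.3, HTSeq 0.6.1p1, TopHat2 2.0.10 and cutadapt, with mm10 as the build. The annotation and strand setting used are not given by these sources. How reads of genes that overlap on opposite strands were counted is therefore not known. Total counts were 14974750 to 23220455.

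The test was that of edgeR 4.0.16 under R 4.3.3 (quasi-likelihood test, minimum count 10 in its filter, TMM scaling, Benjamini-Hochberg adjustment over all 14916 genes, threshold 0.05). Adjusted p-values are from that test unless another is named, and the SE was taken from the fold change and its F statistic. CPM uses TMM library sizes. List levels are mean log2 CPM with a prior count of 2. CPM per kilobase uses the union of exons in GENCODE M21, and positions are from RefSeq GRCm38.p6. Alternatives were DESeq2 1.42.0, limma-voom (limma 3.58.1), other scalings, filters and thresholds, the replicate number as a block, 2 marker covariates, and libraries left out. The tests were run on 2 simulated data sets with 200 changed genes each. The simulated differences were larger than those of nearly all members, and every gene was given the same scatter between libraries. That check therefore cannot show whether differences of the members' size would be called.

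The 32 genes, the lists and the naming rule were chosen with earlier results of these data known. The rule gives in full the 8 members with the smallest p, the 3 most abundant per kilobase and 9 stage markers, and the 2 genes with the smallest p of each other lineage list. Other genes are named because a count holds them, or after their values were seen.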

Additional observations from a re-analysis of the deposited data

How the results depend on the processing

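Over the 14 genes given in full and 17 alternative settings, 227 of 238 log2 fold changes kept their direction and 8 passed the threshold, those of Mbp, Mag, Trf and Apod by DESeq2 with and without its own filter. DESeq2 called 517 genes higher and 359 lower, 4 of them members, all lower, and without its own filter 468 higher and 322 lower, again with 4 members lower. Leaving out each library in turn, edgeR called 11 to 97 genes higher and 1 to 50 lower, and 0 members each time. It called the most without WT replicate 2 (97 and 50) and the fewest without WT replicate 3 (11 and 1), with 11 and 2 without cKO replicate 1, 12 and 2 without cKO replicate 2, 61 and 18 without cKO replicate 3 and 27 and 8 without WT replicate 1. The median of the members was then between -0.40, without WT replicate 1, and -0.21, without cKO replicate 1. Without cKO replicate 1 and WT replicate 2 it called 75 higher and 36 lower, the medians were -0.025 for enzymes, -0.070 for connexins, -0.13 for sheath proteins, -0.14 for transcription factors, -0.14 for precursor genes and -0.22 for carrier and stress proteins, and Olig2 was at 0.035. With the striatal covariate it called 0 higher and 0 lower, and 5 members were negative. The medians were then 0.21 for all members, 0.22 for sheath proteins, 0.26 for connexins, 0.64 for enzymes, 0.14 for transcription factors, -0.015 for precursor genes and 0.041 for carrier and stress proteins. Under it Mag was at 0.026, Trf 0.041, Mbp 0.075, Cnp 0.15, Enpp2 1.005, Olig2 0.32, Sox10 0.056, Myrf 0.22 and Pdgfra 0.052. With the choroid plexus covariate it called 12 higher and 0 lower, the medians were 0.053 for enzymes, -0.0077 for connexins, -0.12 for sheath proteins, -0.13 for transcription factors, -0.14 for precursor genes and -0.20 for carrier and stress proteins, and Olig2 was at 0.047. The cause of these shifts was not tested. The groups share replicate numbers, and deviations of same-numbered libraries correlated at 0.22, 0.43 and 0.079. For libraries with different numbers the values were -0.41 to 0.19. Whether the numbers stand for a pairing was not tested. The labels state none, so the main test took none. With the replicate block edgeR called 107 genes higher and 78 lower, 0 members, and the median of the members was -0.32. Under that block, adjusted p by edgeR was 0.061 for Mag and Cnp, 0.063 for Mbp, 0.068 for Enpp2 and 0.074 for Nkx6-2. It was 0.077 for Trf, 0.092 for Myrf and 0.098 for Plekhb1, and above 0.1 for the other genes given in full. In the main edgeR fit, without a block, 0 members were called at adjusted p below 0.1 or 0.01. With the longest transcript as length, Mbp was still the highest per kilobase. The p-values measure the spread between 3 libraries a group. Nothing in the labels says that they came from separate litters or days.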

Other observations

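Cholesterol is a major lipid of myelin. Of 22 genes of its synthesis, 12 were negative (median log2 fold change -0.012), edgeR called 0, and 1 was lower and 1 higher at an unadjusted p below 0.05. Sc5d, a sterol desaturase, had 47.2, 59.7 and 47.8 CPM in cKO replicates 1 to 3, against 42.2, 43.9 and 39.8 CPM in WT replicates 1 to 3 (log2 fold change 0.30, SE 0.11, adjusted p = 0.194 by edgeR). Mvd, of the mevalonate pathway, had a log2 fold change of -0.32 (SE 0.13, adjusted p = 0.23) with overlapping groups.

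Of 20 genes of nodes of Ranvier and axon-glia contact, 9 had negative log2 fold changes (median 0.011), edgeR called 0, and 1 was lower and 2 higher at an unadjusted p below 0.05. Nrcam, an adhesion molecule of nodes, had 317, 311 and 275 CPM in cKO replicates 1 to 3, against 237, 226 and 229.7 CPM in WT replicates 1 to 3, with groups apart (log2 fold change 0.38, SE 0.078, adjusted p = 0.0649 by edgeR and 0.00199 by DESeq2). Cadm4, which glia use to hold on to axons, had 295, 289 and 274 CPM in cKO replicates 1 to 3 and 339, 366 and 328 CPM in WT replicates 1 to 3 (log2 fold change -0.27, SE 0.074, adjusted p = 0.121). Of 22 growth factor and receptor genes, 13 were negative (median -0.052) and edgeR called 0, with 3 lower and 1 higher at an unadjusted p below 0.05. S1pr5, a sphingosine phosphate receptor of oligodendrocytes, had a log2 fold change of -0.44 (SE 0.11, adjusted p = 0.1), and Akt1, a kinase of growth factor signalling, -0.25 (SE 0.075, adjusted p = 0.141), both with groups apart.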
